A study of Mus musculus with 8 samples.

Results

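The genes described here are 9 members of the vascular endothelial growth factor (VEGF) system, chosen by name from the 24421 genes in the deposited tables. They are the ligands Vegfa, Vegfb, Vegfc and Pgf, the receptor tyrosine kinases Flt1 (VEGF receptor 1) and Kdr (VEGF receptor 2), the co-receptors Nrp1 and Nrp2, and Adm, which encodes the vasoactive peptide adrenomedullin. RNA was sequenced from MCa-P1362, a mouse mammary adenocarcinoma line raised from a single tumour that arose without treatment in a Balb/c female. Cells of the culture had been sorted by their surface level of EpCAM, an epithelial adhesion protein, and the 8 libraries form 4 groups of 2: monoculture EpCAM+, monoculture EpCAM-, coculture EpCAM+ and coculture EpCAM-. All groups come from this 1 line, with no transgene or drug named in the labels, and no label says whether the 2 libraries of a group were separate cultures, so p-values measure the spread between libraries, which may be technical. The protocol names cells frozen straight after sorting and cells grown on and passaged once before freezing, without tying either to the words monoculture and coculture, which are used here only as the labels give them.

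VEGF ligands are secreted dimers that act on receptor tyrosine kinases best known from endothelial cells. VEGF-A binds Flt1 and Kdr, and Kdr carries most of the growth and permeability signal in vessels. VEGF-B and placental growth factor, the product of Pgf, bind Flt1, which is also made as a soluble form that traps ligand. VEGF-C and VEGF-D act mainly on Flt4 (VEGF receptor 3) and drive growth of lymphatic vessels. Neuropilins bind VEGF and class 3 semaphorins and present them to the kinases or to plexins. Adrenomedullin signals through the calcitonin receptor-like receptor Calcrl paired with a RAMP protein. In mouse and human, Vegfa and Adm are well known targets of hypoxia-inducible factors (HIF).

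All 9 genes were tested, as they reached 1 FPKM (fragments scaled to the length of the transcript and the size of the library) in at least 2 of the 8 libraries. Kdr passed this filter only through the coculture EpCAM- libraries, Pgf only through the EpCAM+ libraries and Adm only through the EpCAM- libraries. FPKM summed to between 387489 and 414612 per library, 10634 to 11119 genes reached 1 FPKM, and the depth in reads is unknown. The fractions carried their markers: all 18 epithelial markers were higher and all 18 mesenchymal markers were lower in EpCAM+ than in EpCAM- cells, by 2-fold or more in both cultures. The 18 mesenchymal markers summed to 45.6 and 46.0 FPKM in the monoculture EpCAM+ libraries and to 261 and 263 FPKM in the coculture EpCAM+ libraries, against 14169.5 to 16110.5 FPKM in EpCAM- libraries. The median marker stood at 0.134% and 0.140% of its EpCAM- level in the monoculture EpCAM+ libraries and at 1.75% and 1.74% in the coculture EpCAM+ libraries. Markers of endothelial cells, the usual site of the VEGF receptors, were at or near 0: all 16 summed to between 1.21 and 3.13 FPKM per library, Egfl7 was the one marker that averaged 1 FPKM or more in any group, and Cldn5, Robo4 and Sox17 were listed at 0 in all 4 groups. The leukocyte markers Cd3e, Adgre1 and Tyrobp were also listed at 0 in every group, while Cd14 gave most of that list's 6.48 to 19.6 FPKM. Lyz2, a lysozyme gene of myeloid cells with a close paralog, was listed at 0 in the EpCAM+ libraries and had 3.10 and 3.02 FPKM in monoculture EpCAM- and 0.156 and 0.427 FPKM in coculture EpCAM-.

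In the sequences that follow, 250 bases before the transcription start are shown for the 4 members with the largest log2 differences between fractions on the FPKM + 1 scale, because Adm and Vegfa are HIF targets and their levels can be read beside the letters. They are RefSeq windows on build GRCm38.p6, which has them for all 9 genes, and of the 2 starts it gives for Vegfa the upstream one is shown. They are written 5′ to 3′ on the strand of the gene. Capitals mark the HIF core motif, ACGTG or GCGTG, on either strand.
Adm, chr7:110627407-110627656, plus strand: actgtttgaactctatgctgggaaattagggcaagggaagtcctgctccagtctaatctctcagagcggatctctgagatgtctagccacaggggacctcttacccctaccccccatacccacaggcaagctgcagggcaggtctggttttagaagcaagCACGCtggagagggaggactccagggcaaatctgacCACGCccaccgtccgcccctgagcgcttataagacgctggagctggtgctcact
Vegfa, chr17:46032378-46032627, minus strand: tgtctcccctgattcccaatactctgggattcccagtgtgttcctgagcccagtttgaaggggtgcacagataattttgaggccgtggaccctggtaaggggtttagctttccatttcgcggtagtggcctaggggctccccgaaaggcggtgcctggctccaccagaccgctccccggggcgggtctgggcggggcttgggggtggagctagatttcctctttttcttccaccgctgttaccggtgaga
Flt1, chr5:147726012-147726261, minus strand: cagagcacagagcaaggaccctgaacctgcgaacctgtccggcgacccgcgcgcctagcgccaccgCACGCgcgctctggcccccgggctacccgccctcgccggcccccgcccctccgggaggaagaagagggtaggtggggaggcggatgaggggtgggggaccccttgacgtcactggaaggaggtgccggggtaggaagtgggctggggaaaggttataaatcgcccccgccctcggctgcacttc
Vegfc, chr8:54077282-54077531, plus strand: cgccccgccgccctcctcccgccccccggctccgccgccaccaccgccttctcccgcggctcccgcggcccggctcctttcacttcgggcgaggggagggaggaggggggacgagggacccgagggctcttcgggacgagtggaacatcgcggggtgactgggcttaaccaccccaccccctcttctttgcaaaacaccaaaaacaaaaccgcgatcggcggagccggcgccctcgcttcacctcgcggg
The window of Adm held 2 HIF cores, 90 and 54 bases before the start, and that of Flt1 held 1, 184 bases before the start. The windows shown for Vegfa and Vegfc held no match, which says only that these letters are not within 250 bases of these starts. The window of the other Vegfa start, which lies inside the gene and is not shown, held 2 HIF cores, 218 and 211 bases before that start, and 2 of the E-boxes described below. The motif was in 38.6% of the 32851 mouse windows, so a match by itself is common. A GC box (GGGCGG, either strand) was in all 4 windows and in 32.7% of all windows, and Flt1 alone of the 4 held a TATA box (TATAAA, either strand), found in 12.4% of all windows. The same search on both strands was run for an E-box bound by ZEB and SNAI factors (CACCTG), an AP-1 site (TGANTCA), an ETS site (ACCGGAAG) and an NF-kB site, and the 4 windows held none of these.

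In the annotation (GENCODE M21, GRCm38) all 9 genes are protein coding, and FPKM are values of the whole gene. Vegfa lies at chr17:46016993-46032369, minus strand, Vegfb at chr19:6982473-6987651, minus strand, Vegfc at chr8:54077606-54187096, plus strand, and Pgf at chr12:85166635-85177790, minus strand. Flt1 at chr5:147561604-147726011 and Kdr at chr5:75932827-75978458 are on the minus strand of the same chromosome. Nrp1 lies at chr8:128358604-128503363, Nrp2 at chr1:62703285-62818695 and Adm at chr7:110627661-110629820, all on the plus strand. Adm and Nrp2 are overlapped by the antisense genes Gm28863 and Gm29083, and the counting is not stated to use strand, so reads of these pairs cannot be told apart.

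**Figure D1:**
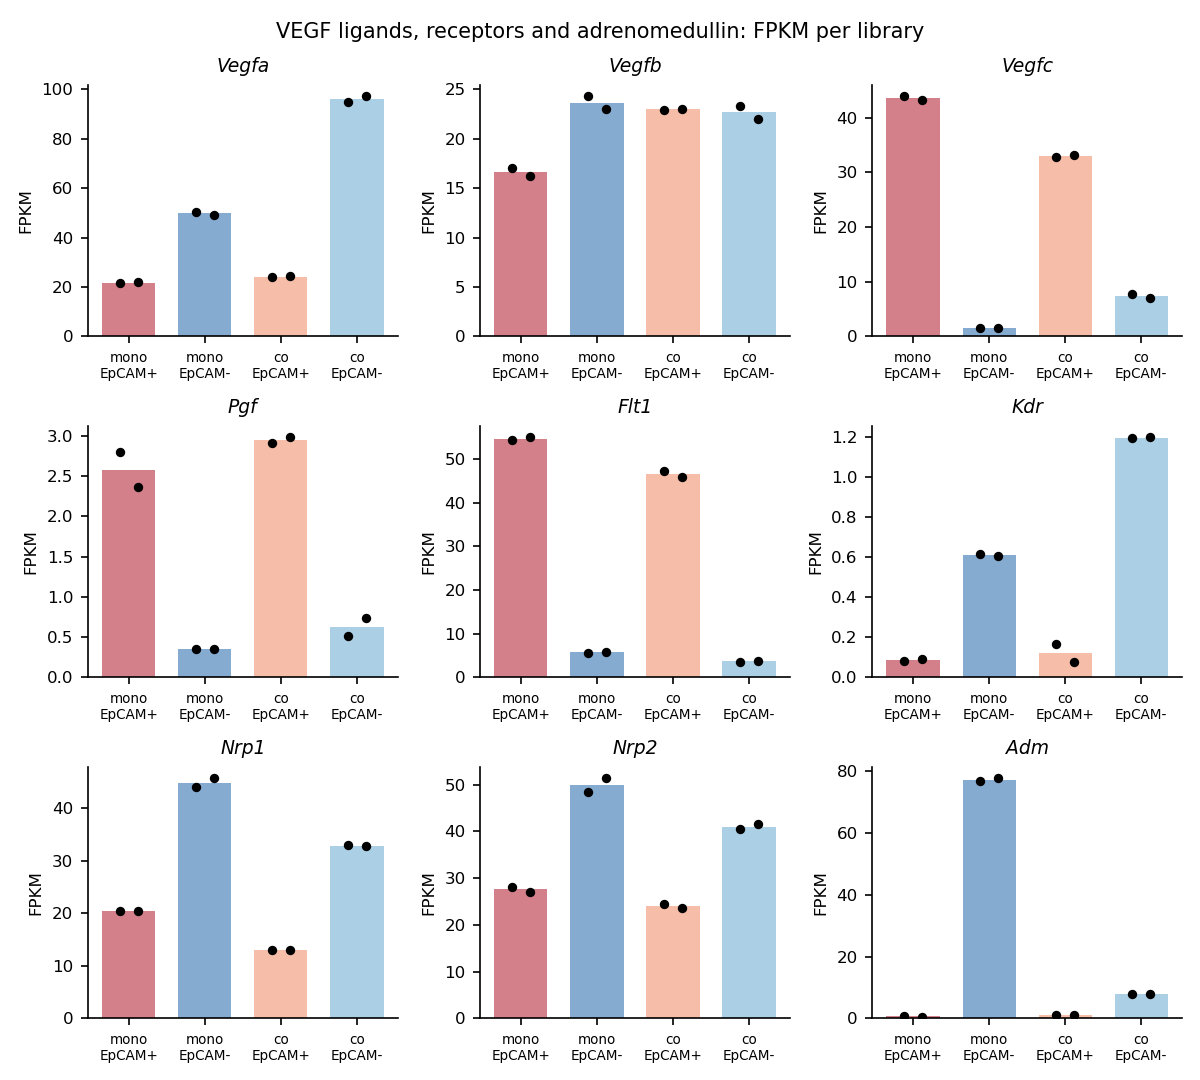
FPKM of the 9 genes (vertical axes, each from 0 with its own scale) in the 4 groups; points are the 2 libraries of a group and bars their mean. Vegfc, Pgf and Flt1 stand high in both EpCAM+ groups, Vegfa, Kdr, Nrp1, Nrp2 and Adm stand high in both EpCAM- groups, and Vegfb is nearly level.

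The 9 genes divided between the fractions. EpCAM+ cells carried Vegfc, Pgf and Flt1 at higher levels than EpCAM- cells in both cultures, and EpCAM- cells carried Vegfa, Kdr, Nrp1, Nrp2 and Adm at higher levels than EpCAM+ cells in both cultures. In monoculture 3 members were higher and 6 lower in EpCAM+ at an adjusted p under 0.05 (limma on log2(FPKM + 1), Benjamini-Hochberg over 12012 genes), where 87.9% of all genes tested were called. In coculture 3 were higher and 5 lower, where 87.2% of all genes were called, so a call by itself sets no member apart. Kdr, Pgf and Adm are among these calls, and each passed the filter only through libraries where it was high. At 2-fold or more, 3 members were higher and 3 lower in EpCAM+ in each culture; the shares of all genes were 15.5% higher and 12.6% lower in monoculture, and 16.5% higher and 10.1% lower in coculture. The median log2 difference of the 9 genes was -0.57 in monoculture and -0.75 in coculture, beside 0.23 and 0.26 for all genes tested. Of all calls, 63.1% were higher in EpCAM+ in monoculture and 67.9% in coculture. By the median of ratios these shares were 50.6% and 50.5%, with the median of all genes moved by -0.22 and -0.25, and after quantile normalization 50.4% in coculture. Of calls at 2-fold, 55.2% were higher in EpCAM+ in monoculture and 62.0% in coculture, against 44.2% and 50.2% by the median of ratios and, in coculture, 48.2% after quantile normalization. With 2 libraries a group an exact test cannot go below p = 0.333, so the tests pool the spread of the 4 groups.

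**Figure D2:**
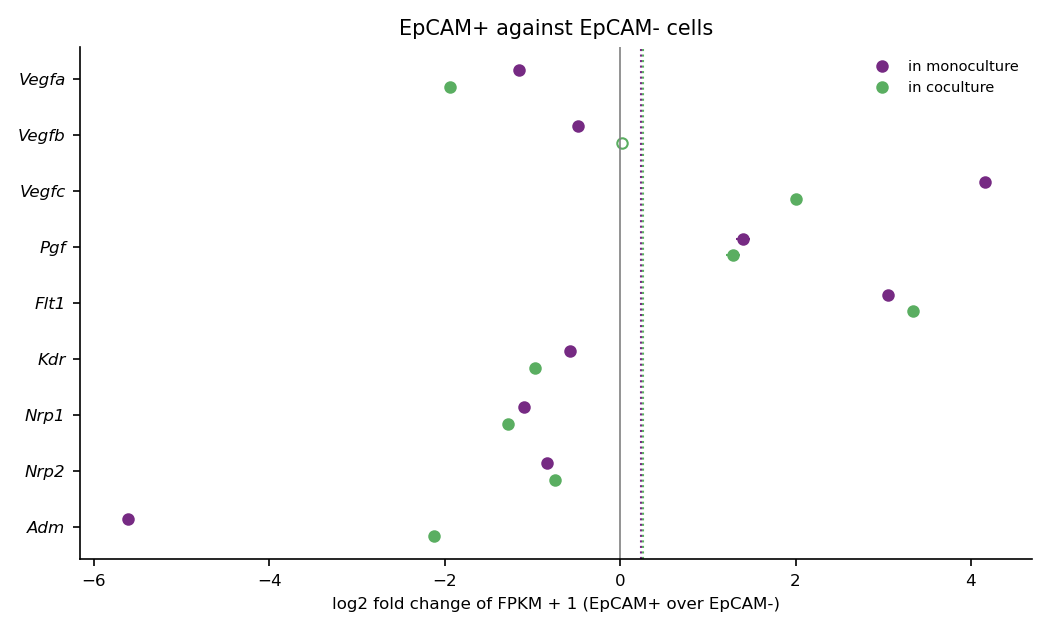
Log2 fold change of FPKM + 1, EpCAM+ over EpCAM- (horizontal axis), for each of the 9 genes in monoculture and in coculture; bars are 1 standard error, filled points passed an adjusted p of 0.05, and dotted lines are the medians of all genes tested. Vegfc, Pgf and Flt1 lie right of 0, and Adm lies furthest left in monoculture, at -5.62.

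Among the ligands, Vegfa was the EpCAM- gene. It had 21.7 and 21.8 FPKM in monoculture EpCAM+, 50.3 and 49.3 FPKM in monoculture EpCAM-, 23.9 and 24.5 FPKM in coculture EpCAM+, and 94.7 and 97.2 FPKM in coculture EpCAM-. No libraries of different groups overlapped, and the coculture EpCAM- libraries stood highest, above 94.4% of the genes tested. The log2 difference of EpCAM+ against EpCAM- was -1.16 (SE 0.0257, adjusted p = 1.80e-09) in monoculture and -1.94 (adjusted p = 1.07e-10) in coculture, with mean levels in EpCAM- 2.29 and 3.96 times those in EpCAM+. In bulk RNA of a sorted fraction, a different share of cells that make a transcript and a different amount of it per cell cannot be told apart, here and in what follows.

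Vegfc, the lymphangiogenic ligand, had the opposite distribution. It had 43.8 and 43.2 FPKM in monoculture EpCAM+, 1.44 and 1.55 FPKM in monoculture EpCAM-, 32.7 and 33.2 FPKM in coculture EpCAM+, and 7.77 and 7.09 FPKM in coculture EpCAM-. Both EpCAM+ groups stood above both EpCAM- groups in every library. The log2 difference was 4.16 (SE 0.0460, adjusted p = 4.08e-11) in monoculture, a ratio of mean levels of 29.1, and 2.01 (adjusted p = 2.34e-09) in coculture, a ratio of 4.44. Pgf, the placental growth factor gene, followed the same direction at a low level: 2.80 and 2.36 FPKM in monoculture EpCAM+, 0.350 and 0.355 FPKM in monoculture EpCAM-, 2.92 and 2.98 FPKM in coculture EpCAM+, and 0.507 and 0.742 FPKM in coculture EpCAM-. Its log2 differences were 1.40 (SE 0.0834, adjusted p = 8.01e-07) in monoculture and 1.28 (adjusted p = 1.54e-06) in coculture. Pgf passed the filter only through the EpCAM+ libraries, so these p-values are no separate support for the difference.

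Vegfb, the Flt1 ligand, varied least between groups. It had 17.0 and 16.2 FPKM in monoculture EpCAM+, 24.3 and 23.1 FPKM in monoculture EpCAM-, 22.96 and 23.01 FPKM in coculture EpCAM+, and 23.3 and 22.0 FPKM in coculture EpCAM-. The monoculture EpCAM+ libraries stood below the rest, and the coculture EpCAM+ and coculture EpCAM- libraries overlapped. The log2 difference of EpCAM+ against EpCAM- was -0.48 (SE 0.0404, adjusted p = 7.02e-06) in monoculture and 0.02 (SE 0.0404, adjusted p = 0.67) in coculture. The coculture value took either sign with the scaling: it was -0.07 after scaling to a constant sum (adjusted p = 0.116), -0.25 by the median of ratios (adjusted p = 4.83e-04) and -0.20 after quantile normalization (adjusted p = 0.00193).

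The ligands made up different mixtures in the fractions. The 4 ligand genes summed to 84.5 ± 1.20 FPKM in monoculture EpCAM+, 75.4 ± 1.49 FPKM in monoculture EpCAM-, 83.1 ± 0.796 FPKM in coculture EpCAM+ and 126.7 ± 0.507 FPKM in coculture EpCAM- (SD, n = 2 each). Vegfc was 51.5% ± 0.218 of that sum in monoculture EpCAM+, 1.99% ± 0.146 in monoculture EpCAM-, 39.7% ± 0.0136 in coculture EpCAM+ and 5.86% ± 0.402 in coculture EpCAM-. Vegfa was 25.8% ± 0.476 in monoculture EpCAM+, 66.1% ± 0.369 in monoculture EpCAM-, 29.1% ± 0.216 in coculture EpCAM+ and 75.7% ± 1.06 in coculture EpCAM-. Vegfc was thus the leading VEGF ligand transcript per length in EpCAM+ cells and Vegfa that in EpCAM- cells, in both cultures.

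**Figure D3:**
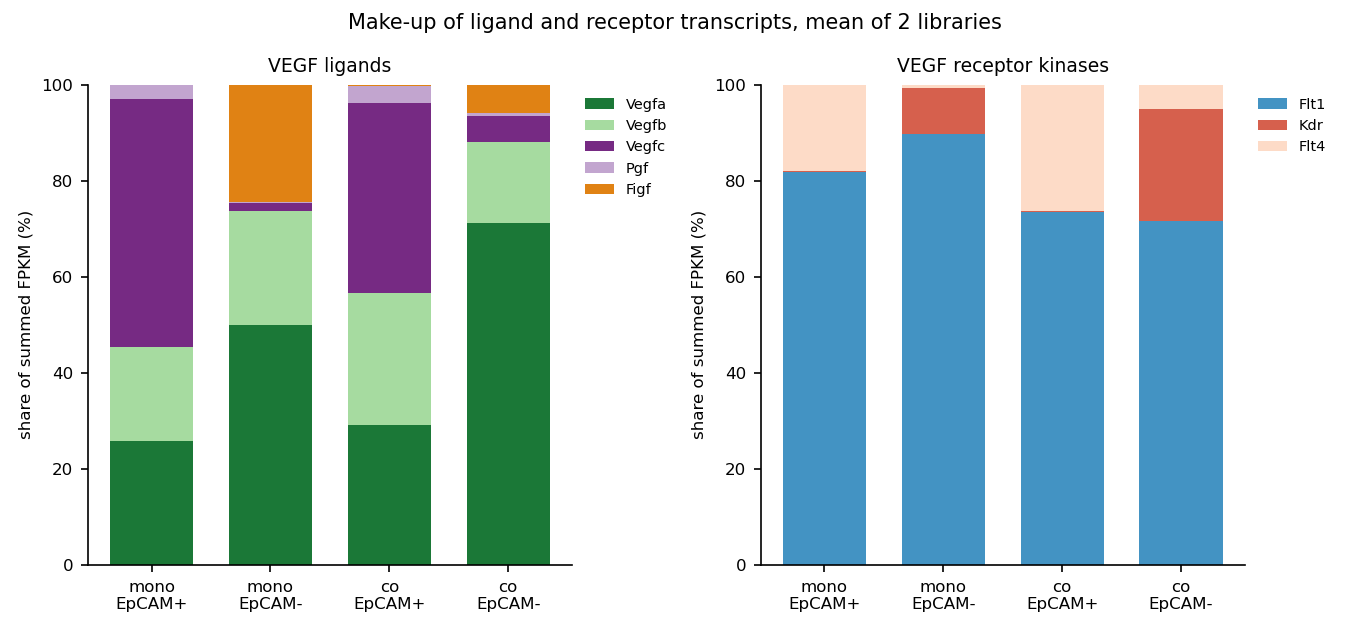
Share of summed FPKM in percent, mean of the 2 libraries of a group, for 5 VEGF ligands (left, with Figf, the gene of VEGF-D) and 3 VEGF receptor kinases (right, with Flt4) in the 4 groups. Vegfc takes 51.5% of the ligand sum in monoculture EpCAM+, Figf 24.4% in monoculture EpCAM-, and Flt1 more than any other receptor kinase in every group.

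Among the receptors, Flt1 was the abundant one and lay in the EpCAM+ fraction. It had 54.3 and 54.9 FPKM in monoculture EpCAM+, 5.64 and 5.78 FPKM in monoculture EpCAM-, 47.2 and 45.8 FPKM in coculture EpCAM+, and 3.62 and 3.78 FPKM in coculture EpCAM-. The EpCAM+ libraries stood far above the EpCAM- libraries, with no overlap between any groups, and above 87.6% of tested genes in monoculture. The log2 difference of EpCAM+ against EpCAM- was 3.05 (SE 0.0331, adjusted p = 3.75e-11) in monoculture and 3.34 (adjusted p = 2.98e-11) in coculture, ratios of mean levels of 9.56 and 12.6. Values are per gene, so the membrane-bound and soluble forms of Flt1 are not separated.

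Kdr, the main signalling receptor of endothelial cells, was low in every library. It had 0.0815 and 0.0901 FPKM in monoculture EpCAM+, 0.617 and 0.606 FPKM in monoculture EpCAM-, 0.167 and 0.0774 FPKM in coculture EpCAM+, and 1.198 and 1.199 FPKM in coculture EpCAM-. The EpCAM- libraries stood above all EpCAM+ libraries, and the EpCAM+ libraries of the 2 cultures overlapped. The log2 difference on the FPKM + 1 scale, which understates changes at such levels, was -0.57 (SE 0.0549, adjusted p = 1.77e-05) in monoculture and -0.97 (adjusted p = 6.33e-07) in coculture, while mean levels in EpCAM- were 7.13 and 9.82 times those in EpCAM+. Even where it was highest, Kdr exceeded 13.3% of the tested genes. Kdr passed the filter only through the coculture EpCAM- libraries, where it was highest. Its coculture p-value is thus no separate support for the coculture difference. Of the 16 endothelial markers, 8 were higher in coculture EpCAM+, 5 (Cdh5, Emcn, Vwf, Mmrn2 and Esam) were higher in coculture EpCAM-, as Kdr was, and 3 were at 0 in both. Their sum, mostly Egfl7, was 2.83 and 3.13 FPKM in coculture EpCAM+ and 1.21 and 1.67 FPKM in coculture EpCAM-, no marker but Egfl7 exceeded 0.218 FPKM in any library, and their part in the Kdr difference was not tested.

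The co-receptors Nrp1 and Nrp2 were expressed in all groups and more in EpCAM- cells. Nrp1 had 20.5 and 20.3 FPKM in monoculture EpCAM+, 44.0 and 45.6 FPKM in monoculture EpCAM-, 12.95 and 13.03 FPKM in coculture EpCAM+, and 32.9 and 32.7 FPKM in coculture EpCAM-. Nrp2 had 28.2 and 27.1 FPKM in monoculture EpCAM+, 48.5 and 51.3 FPKM in monoculture EpCAM-, 24.5 and 23.6 FPKM in coculture EpCAM+, and 40.5 and 41.6 FPKM in coculture EpCAM-. Both genes took the same order of groups, with monoculture EpCAM- highest and coculture EpCAM+ lowest and no overlap between groups. The log2 difference of EpCAM+ against EpCAM- was -1.10 (SE 0.0275, adjusted p = 3.74e-09) in monoculture and -1.27 (adjusted p = 1.67e-09) in coculture for Nrp1. For Nrp2 it was -0.83 (SE 0.0369, adjusted p = 1.24e-07) in monoculture and -0.75 (adjusted p = 2.73e-07) in coculture, under 2-fold in both. Scaling by the median of ratios took the Nrp2 differences to -1.07 and -1.02. Nrp2 over Nrp1 was 1.35 ± 0.0314 in monoculture EpCAM+, 1.11 ± 0.0153 in monoculture EpCAM-, 1.85 ± 0.0551 in coculture EpCAM+ and 1.25 ± 0.0283 in coculture EpCAM- (SD, n = 2 each).

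Adm had the widest range of the 9 genes. It had 0.627 and 0.564 FPKM in monoculture EpCAM+, 76.8 and 77.6 FPKM in monoculture EpCAM-, 1.15 and 0.999 FPKM in coculture EpCAM+, and 7.99 and 8.01 FPKM in coculture EpCAM-. No groups overlapped, and the monoculture EpCAM- libraries stood apart from all others. The mean level exceeded that of 6.89% of the tested genes in monoculture EpCAM+ and of 92.5% in monoculture EpCAM-. The log2 difference of EpCAM+ against EpCAM- was -5.62 (SE 0.0481, adjusted p = 1.21e-11) in monoculture and -2.12 (adjusted p = 2.25e-09) in coculture, with mean levels in EpCAM- 129.6 and 7.46 times those in EpCAM+. The EpCAM+ values were near 1 FPKM or under it, so these ratios are less precise. Adm passed the filter only through the EpCAM- libraries, so these p-values are no separate support for the difference between fractions.

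**Figure D4:**
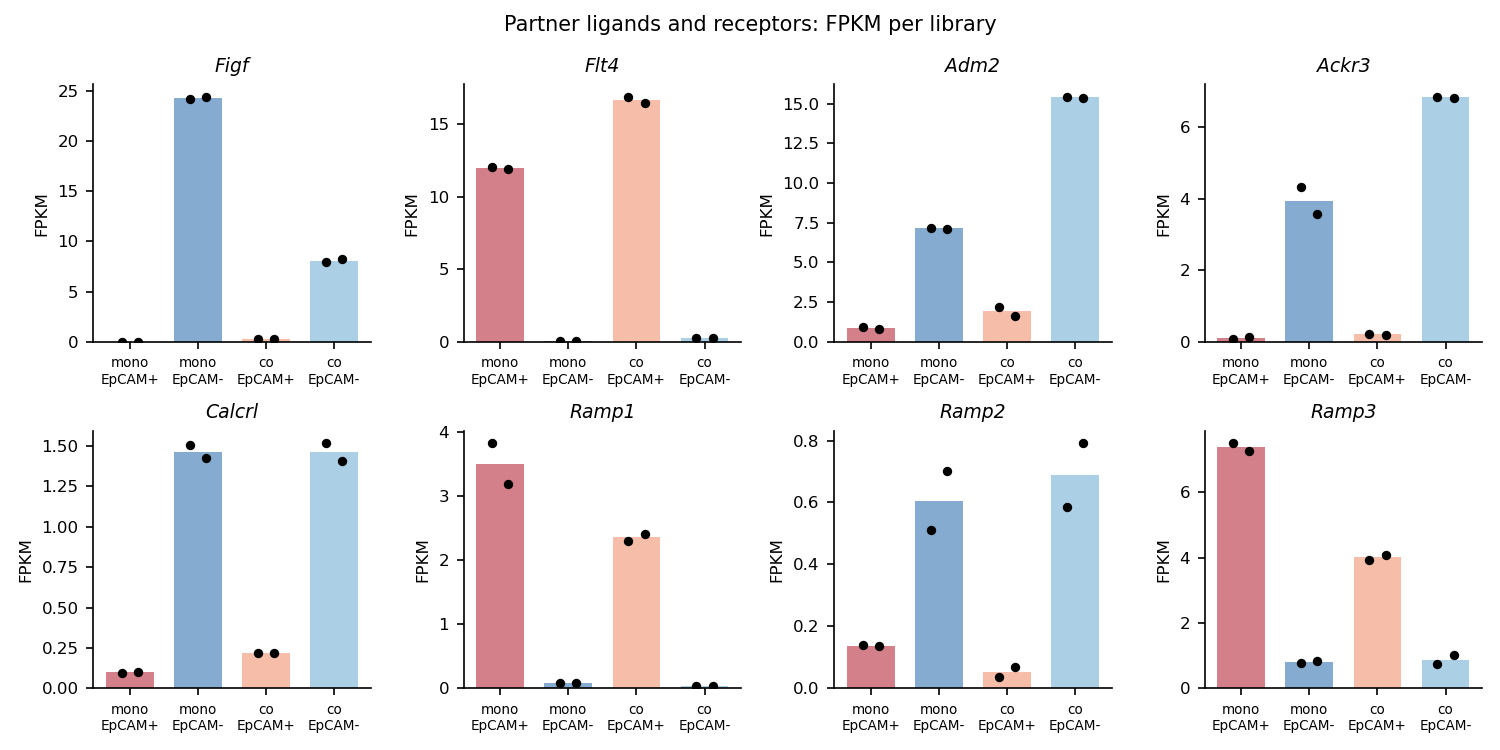
FPKM of 8 partner genes (vertical axes, each from 0 with its own scale) in the 4 groups; points are the 2 libraries of a group and bars their mean. Flt4, Ramp1 and Ramp3 stand high in EpCAM+ groups, and Figf, Adm2, Ackr3, Calcrl and Ramp2 stand high in EpCAM- groups.

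The partner ligands and receptors of the pathway were also divided by fraction. Of 11 other ligands and receptors in the files 7 were tested. In each culture 3 were higher and 4 lower in EpCAM+ by 2-fold or more. Of all genes, 15.5% were higher and 12.6% lower at that size in monoculture, and 16.5% and 10.1% in coculture. Flt4, Ramp1 and Ramp3 passed the filter only through EpCAM+ libraries, and Figf, Calcrl and Ackr3 only through EpCAM- libraries. A difference between fractions was thus partly built into the testing of these genes. The median log2 differences were -1.17 in monoculture and -1.01 in coculture, beside 0.23 and 0.26 for all genes tested. Flt4, the receptor of VEGF-C and VEGF-D, had 12.1 and 11.9 FPKM in monoculture EpCAM+, 0.0417 and 0.0529 FPKM in monoculture EpCAM-, 16.9 and 16.5 FPKM in coculture EpCAM+, and 0.281 and 0.251 FPKM in coculture EpCAM-. It was thus high in the fraction that was high in Vegfc, with log2 differences of 3.63 (adjusted p = 6.18e-11) in monoculture and 3.80 (adjusted p = 5.79e-11) in coculture. Of the other lymphatic markers, Prox1, the transcription factor of lymphatic identity, was also higher in EpCAM+ at a low level, averaging 0.230 FPKM in monoculture EpCAM+, 0.00572 FPKM in monoculture EpCAM-, 0.247 FPKM in coculture EpCAM+ and 0.00717 FPKM in coculture EpCAM-, below the filter for testing. Lyve1 and Ccl21a were listed at 0 in both EpCAM+ groups and Reln was at 0.00413 FPKM or less in every group, so that Flt4 made nearly all of the 12.2 to 17.1 FPKM of the 5 lymphatic markers there.

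Figf, the older symbol of the VEGF-D gene, was another ligand of EpCAM- cells, at the level of Vegfb in monoculture and below it in coculture. It had 0.00871 and 0.0185 FPKM in monoculture EpCAM+, 24.2 and 24.4 FPKM in monoculture EpCAM-, 0.297 and 0.252 FPKM in coculture EpCAM+, and 7.97 and 8.20 FPKM in coculture EpCAM-. The fractions did not overlap, and the log2 differences were -4.64 (adjusted p = 2.17e-11) in monoculture and -2.83 (adjusted p = 2.90e-10) in coculture. With Figf counted, the 5 ligands summed to 84.5 ± 1.19 FPKM in monoculture EpCAM+, 99.6 ± 1.33 FPKM in monoculture EpCAM-, 83.4 ± 0.765 FPKM in coculture EpCAM+ and 134.7 ± 0.670 FPKM in coculture EpCAM- (SD, n = 2 each), lower in EpCAM+ than in EpCAM- in both cultures. The ligands whose main receptor is Flt4 were 51.5% Vegfc and 0.0161% Figf of the 5-ligand sum in monoculture EpCAM+, and 1.503% Vegfc and 24.4% Figf in monoculture EpCAM-. In coculture they were 39.5% Vegfc and 0.329% Figf in EpCAM+, and 5.51% Vegfc and 6.00% Figf in EpCAM-. Vegfc and Figf thus lay in opposite fractions in both cultures.

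The receptor kinases were dominated by Flt1 in all groups. Flt1, Kdr and Flt4 summed to 66.7 ± 0.399 FPKM in monoculture EpCAM+, 6.37 ± 0.0988 FPKM in monoculture EpCAM-, 63.3 ± 1.33 FPKM in coculture EpCAM+ and 5.16 ± 0.0896 FPKM in coculture EpCAM- (SD, n = 2 each). Flt1 was 81.9% of that sum in monoculture EpCAM+, 89.7% in monoculture EpCAM-, 73.5% in coculture EpCAM+ and 71.6% in coculture EpCAM-. Kdr was 0.129% of it in monoculture EpCAM+, 9.60% in monoculture EpCAM-, 0.192% in coculture EpCAM+ and 23.2% in coculture EpCAM-. The receptor kinase transcripts were thus concentrated in EpCAM+ cells, and Kdr gave a larger share of them in EpCAM- cells.

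Of Calcrl and the RAMP genes, whose products pair as receptors of adrenomedullin and related peptides, Calcrl and Ramp2 were low in every group. Calcrl, the receptor itself, had 0.0971 and 0.0991 FPKM in monoculture EpCAM+, 1.504 and 1.424 FPKM in monoculture EpCAM-, 0.216 and 0.220 FPKM in coculture EpCAM+, and 1.52 and 1.41 FPKM in coculture EpCAM-, with log2 differences of EpCAM+ against EpCAM- of -1.17 (adjusted p = 1.03e-07) in monoculture and -1.01 (adjusted p = 2.79e-07) in coculture. The RAMP partners that passed the filter, Ramp1 and Ramp3, lay in the other fraction: Ramp3 averaged 7.38 ± 0.171 FPKM in monoculture EpCAM+, 0.805 ± 0.0544 FPKM in monoculture EpCAM-, 4.00 ± 0.104 FPKM in coculture EpCAM+ and 0.879 ± 0.178 FPKM in coculture EpCAM-. Ramp1 averaged 3.51 FPKM in monoculture EpCAM+, 0.0794 FPKM in monoculture EpCAM-, 2.36 FPKM in coculture EpCAM+ and 0.0369 FPKM in coculture EpCAM-. Ramp2, the partner of Calcrl in vessels, was below the filter for testing and lay with Calcrl, averaging 0.138 FPKM in monoculture EpCAM+, 0.606 FPKM in monoculture EpCAM-, 0.0530 FPKM in coculture EpCAM+ and 0.688 FPKM in coculture EpCAM-. Of the related genes, Adm2, which encodes another peptide of the family, averaged 0.868 FPKM in monoculture EpCAM+, 7.16 FPKM in monoculture EpCAM-, 1.92 FPKM in coculture EpCAM+ and 15.4 FPKM in coculture EpCAM-. Ackr3, which encodes a scavenger receptor of chemokines and adrenomedullin, averaged 0.106 FPKM in monoculture EpCAM+, 3.95 FPKM in monoculture EpCAM-, 0.210 FPKM in coculture EpCAM+ and 6.84 FPKM in coculture EpCAM-. Adm, Adm2, Calcrl and Ramp2 thus had higher values in EpCAM- cells, and Ramp1 and Ramp3 in EpCAM+ cells.

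Between the cultures, Adm and Vegfc in EpCAM- cells were the members that differed by 2-fold or more. In EpCAM+ cells, 4 members were higher and 3 lower in monoculture than in coculture, and none by 2-fold, where 51.4% of all genes were called and 0.266% were higher and 1.67% lower by 2-fold. In EpCAM- cells, 4 were higher and 4 lower, where 62.7% of all genes were called. There Adm was higher and Vegfc lower by 2-fold or more, where 2.56% of all genes were higher and 1.96% lower at that size. The members' median log2 difference was -0.05 in EpCAM+ and 0.06 in EpCAM- cells, beside -0.06 and 0.00 for all genes. Of all calls in EpCAM+ cells, 32.0% were higher in monoculture, against 44.9% by the median of ratios and 53.6% after quantile normalization.

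**Figure D5:**
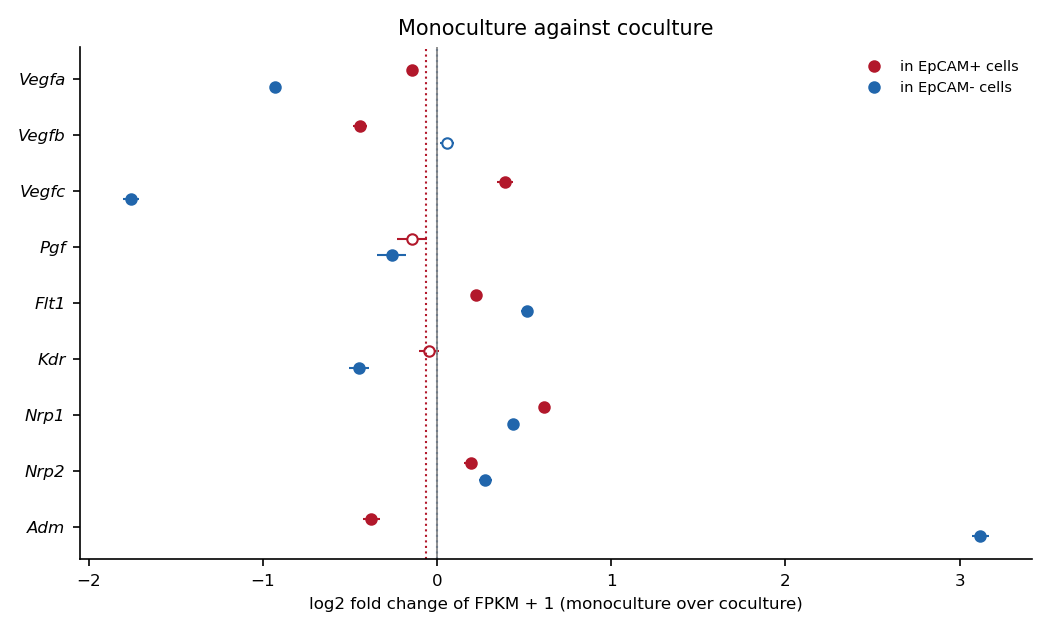
Log2 fold change of FPKM + 1, monoculture over coculture (horizontal axis), for each of the 9 genes in EpCAM+ and in EpCAM- cells; bars are 1 standard error, filled points passed an adjusted p of 0.05, and dotted lines are the medians of all genes tested. Adm at 3.12 and Vegfc at -1.75 in EpCAM- cells lie furthest from 0.

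In EpCAM- cells, the culture difference of Adm was the largest of the 9: with the levels given above, the monoculture mean was 9.65 times the coculture mean, a log2 difference of 3.12 (SE 0.0481, adjusted p = 3.96e-09). Lyz2, of the leukocyte markers, averaged 3.06 FPKM in monoculture EpCAM- and 0.291 FPKM in coculture EpCAM-, in the direction of Adm. It passed the filter only through the monoculture EpCAM- libraries, so its test is no support and is not given. Csf1r had that direction too, at 0.186 and 0.105 FPKM. Cd68 at 0.554 and 0.911 FPKM, Cd14 at 5.02 and 5.34 FPKM and Itgam at 0 and 0.00310 FPKM went the other way. Ptprc was at 0 in both, and the part of such cells in the Adm difference was not tested. Vegfc and Vegfa ran in the direction opposite to Adm. The log2 difference of monoculture against coculture was -1.75 (SE 0.0460, adjusted p = 5.07e-08) for Vegfc and -0.93 (SE 0.0257, adjusted p = 6.36e-08) for Vegfa, with coculture means 4.96 and 1.92 times the monoculture means. The ligands of EpCAM- cells thus differed in direction, and Adm over Vegfa was 1.55 ± 0.0340 in monoculture EpCAM- and 0.0834 ± 0.00132 in coculture EpCAM- (SD, n = 2 each). Kdr was also lower in monoculture EpCAM- than in coculture EpCAM-, through which alone it passed the filter, with a log2 difference of -0.45 (SE 0.0549, adjusted p = 2.03e-04). Flt1 at 0.52, Nrp1 at 0.44 and Nrp2 at 0.28 were higher in monoculture (adjusted p = 5.75e-06, 5.16e-06 and 3.26e-04). Vegfb had a log2 difference of 0.06 (SE 0.0404, adjusted p = 0.243). Pgf was at -0.26 (SE 0.0834, adjusted p = 0.0265), a call that was lost without coculture EpCAM- replicate 2 (-0.16, adjusted p = 0.157), without monoculture EpCAM- replicate 1 (adjusted p = 0.0919) or replicate 2 (adjusted p = 0.085), and with no filter on low values (adjusted p = 0.0549). The 18 epithelial markers, which summed to 10182 FPKM or more in EpCAM+ libraries, summed to 20.3 and 21.4 FPKM in monoculture EpCAM- and to 35.3 and 35.6 FPKM in coculture EpCAM-, and their part in these differences was not tested.

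In EpCAM+ cells, Nrp1 had the largest culture difference, 0.61 (SE 0.0275, adjusted p = 2.01e-06), with a monoculture mean 1.57 times the coculture mean. Vegfc at 0.39 (adjusted p = 3.08e-04), Flt1 at 0.23 (adjusted p = 9.41e-04) and Nrp2 at 0.19 (adjusted p = 0.00353) were also higher in monoculture. Vegfb at -0.44 (SE 0.0404, adjusted p = 8.11e-05), Adm at -0.38 (SE 0.0481, adjusted p = 4.71e-04) and Vegfa at -0.15 (SE 0.0257, adjusted p = 0.00236) were lower in monoculture. Kdr at -0.05 (SE 0.0549, adjusted p = 0.515) and Pgf at -0.14 (SE 0.0834, adjusted p = 0.187) did not pass. Mesenchymal markers moved with this comparison, at the shares given above, so these shares of the EpCAM- level were taken off each EpCAM+ value. Vegfa then had a log2 difference of -0.05 (adjusted p = 0.141), and Adm had -0.38 and its call. The coculture EpCAM+ libraries held 23.9 and 24.5 FPKM of Vegfa, and the EpCAM- share came to 1.68 and 1.67 FPKM of it. The share taken off was a median, and single mesenchymal markers stood at 1.36% to 14.8% of their EpCAM- level in the coculture EpCAM+ libraries. Adm stood at 14.3% and 12.5% of its EpCAM- level in these libraries. The part of EpCAM- cells in the Vegfa and Adm differences was not tested.

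The culture difference was not the same in both fractions for most members, as for most genes tested. The difference between the culture effects, that in EpCAM+ minus that in EpCAM-, passed the test for 7 of 9 members, 4 positive and 3 negative. It passed for 65.2% of all genes, so passing sets no member apart. Of all such calls 39.9% were positive, against 53.4% after quantile normalization. It was -3.50 (SE 0.0680, adjusted p = 2.16e-08) for Adm, 2.15 (SE 0.0651, adjusted p = 1.87e-07) for Vegfc and 0.78 (SE 0.0363, adjusted p = 1.22e-06) for Vegfa. For Vegfc and Adm the directions were opposite in the fractions: Vegfc was higher in monoculture in EpCAM+ cells and lower in EpCAM- cells, and Adm was lower in EpCAM+ cells and higher in EpCAM- cells. The Adm values in EpCAM+ cells were near 1 FPKM or under it. For Pgf it was 0.12 (SE 0.118, adjusted p = 0.412) and for Nrp2 -0.08 (SE 0.0522, adjusted p = 0.191), neither of which passed.

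Beyond ligands and receptors, the genes downstream of the VEGF receptors were mixed. Of 17 tested signal transduction genes, 8 were higher and 6 lower in EpCAM+ in monoculture, and 9 were higher and 6 lower in coculture, with medians of 0.04 and 0.19. Of all genes, 87.9% were called between fractions in monoculture and 87.2% in coculture, with medians of 0.23 and 0.26. Between cultures, 51.4% of all genes were called in EpCAM+ and 62.7% in EpCAM- cells. A count of calls by itself thus sets neither this list nor those that follow apart. Hspb1, a small heat shock protein of actin remodelling, averaged 173.9 FPKM in monoculture EpCAM+, 62.3 FPKM in monoculture EpCAM-, 180.3 FPKM in coculture EpCAM+ and 27.8 FPKM in coculture EpCAM-. Fyn, a Src family kinase, averaged 4.85 FPKM in monoculture EpCAM+, 45.0 FPKM in monoculture EpCAM-, 6.76 FPKM in coculture EpCAM+ and 48.7 FPKM in coculture EpCAM-. Between cultures 5 of the 17 were higher and 2 lower in monoculture in EpCAM+ cells, led by Src at 0.32 (adjusted p = 5.38e-05) and the adaptor Gab1 at -0.55 (adjusted p = 3.51e-05). In EpCAM- cells 5 were higher and 5 lower, with Hspb1 at 1.13 (adjusted p = 8.61e-08) and Src at -0.40 (adjusted p = 7.50e-06).

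Of the semaphorin and plexin partners of the neuropilins, Sema3a was lower and Plxnd1 higher in EpCAM+ in both cultures. Of 9 tested, 2 were higher and 7 lower in EpCAM+ in monoculture, and 4 were higher and 5 lower in coculture, with medians of -0.59 and -0.42. Sema3a, a class 3 semaphorin that binds Nrp1, averaged 3.91 FPKM in monoculture EpCAM+, 31.0 FPKM in monoculture EpCAM-, 2.63 FPKM in coculture EpCAM+ and 20.5 FPKM in coculture EpCAM-. Plxnd1, the plexin that binds Sema3e, averaged 38.0 FPKM in monoculture EpCAM+, 10.1 FPKM in monoculture EpCAM-, 39.99 FPKM in coculture EpCAM+ and 12.5 FPKM in coculture EpCAM-. In EpCAM+ cells 2 were higher and 5 lower in monoculture, with Sema3e at 0.38 (adjusted p = 4.93e-04) and Plxna1 at -0.12 (adjusted p = 0.0143). In EpCAM- cells 6 were higher and 2 lower, with Plxna1 at 0.70 (adjusted p = 6.45e-07) and Plxna4 at -0.40 (adjusted p = 3.28e-04). Sema3f differed more there, by 1.93 (adjusted p = 8.04e-08), averaging 2.99 FPKM in monoculture EpCAM- and 0.0481 FPKM in coculture EpCAM-. Its log2 difference of EpCAM+ against EpCAM- was -0.47 in monoculture and 1.81 in coculture, where it averaged 2.68 FPKM in EpCAM+.

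Vegfa and Adm are both HIF targets, and they differed in opposite directions between the cultures in EpCAM- cells, so the HIF genes are given beside them. Of 8 HIF pathway genes, 2 were higher and 5 lower in EpCAM+ in monoculture, and 4 were higher and 3 lower in coculture, with medians of -0.32 and 0.01. Egln3, a HIF prolyl hydroxylase, averaged 0.183 FPKM in monoculture EpCAM+, 5.04 FPKM in monoculture EpCAM-, 0.518 FPKM in coculture EpCAM+ and 5.13 FPKM in coculture EpCAM-. Hif1an, the asparagine hydroxylase of HIF, was higher in EpCAM+ by 0.38 (adjusted p = 9.42e-05) in monoculture and 0.58 (adjusted p = 6.98e-06) in coculture. Epas1, another gene of this list, averaged 2.25 FPKM in EpCAM+ and 0.472 FPKM in EpCAM- cells of monoculture. In coculture Epas1 averaged 4.32 FPKM in EpCAM+ and 0.190 FPKM in EpCAM- cells. It passed the filter only through EpCAM+ libraries, so its tests between fractions are not given. In EpCAM+ cells its log2 difference of monoculture against coculture was -0.71 (adjusted p = 1.74e-05). Hif1a, whose product is regulated mainly at the protein level, averaged 55.4 FPKM in monoculture EpCAM- and 72.3 FPKM in coculture EpCAM-, a log2 difference of -0.38 (adjusted p = 3.96e-06). Egln1, the main HIF prolyl hydroxylase, was higher in monoculture in both fractions, by 0.28 (adjusted p = 6.25e-05) in EpCAM+ and 0.19 (adjusted p = 2.67e-04) in EpCAM- cells, and Arnt, the partner of the HIF alpha subunits, had -0.35 (adjusted p = 1.39e-04) in EpCAM+ cells. Of the 8, 1 was higher and 4 lower in monoculture in EpCAM+ cells, and 5 were higher and 1 lower in EpCAM- cells.

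Other HIF targets did not move in one direction. Of 17 tested, 9 were higher and 7 lower in EpCAM+ in monoculture, and 8 were higher and 9 lower in coculture, with medians of 0.27 and -0.07. All genes tested had medians of 0.23 and 0.26, and 87.9% and 87.2% of them were called. P4ha1, a collagen prolyl hydroxylase, averaged 8.38 FPKM in monoculture EpCAM+, 129.6 FPKM in monoculture EpCAM-, 7.09 FPKM in coculture EpCAM+ and 111.9 FPKM in coculture EpCAM-, and lay in the fraction of Vegfa and Adm. Bhlhe40, a transcriptional repressor, averaged 96.5 FPKM in EpCAM+ and 23.1 FPKM in EpCAM- cells of monoculture, and Ndrg1, a stress response gene, averaged 23.7 FPKM in EpCAM+ and 5.39 FPKM in EpCAM- cells of coculture. Between cultures, 5 were higher and 4 lower in monoculture in EpCAM+ cells, with P4ha1 at 0.21 (adjusted p = 3.96e-04) and the mTOR inhibitor gene Ddit4 at -0.43 (adjusted p = 4.40e-06). In EpCAM- cells 3 were higher and 8 lower, with a median of -0.10. There Ndrg1 had a log2 difference of 1.26 (adjusted p = 3.12e-07), in the direction of Adm, and Pfkfb4, a regulator of glycolysis, had -1.13 (adjusted p = 6.81e-07), in the direction of Vegfa.

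Other angiogenic ligands and inhibitors were likewise split. Of 16 tested ligands, 7 were higher and 7 lower in EpCAM+ in monoculture, and 6 were higher and 9 lower in coculture, with medians of 0.08 and -0.35. Pdgfb, the ligand that recruits pericytes, averaged 34.5 FPKM in EpCAM+ and 0.0343 FPKM in EpCAM- cells of monoculture, and the ephrin Efna1 averaged 24.4 FPKM in EpCAM+ and 0.235 FPKM in EpCAM- cells of coculture. The chemokine Cxcl12 averaged 2.03 FPKM in monoculture EpCAM+, 661.9 FPKM in monoculture EpCAM-, 4.06 FPKM in coculture EpCAM+ and 189.9 FPKM in coculture EpCAM-. Cxcl12 is also on the list of mesenchymal markers. Of the 16, 7 were higher and 4 lower in monoculture in EpCAM+ cells, with Ctgf at 1.13 (adjusted p = 1.38e-08) and Fgf1 at -0.80 (adjusted p = 2.30e-05), and 5 were higher and 6 lower in EpCAM- cells, with Cxcl12 at 1.80 (adjusted p = 1.10e-08) and Hbegf, an EGF receptor ligand, at -1.49 (adjusted p = 5.60e-09).

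Of 9 genes listed as angiogenesis inhibitors, 3 were higher and 6 lower in EpCAM+ in monoculture, and 4 were higher and 5 lower in coculture, with medians of -1.16 and -0.50. Vash2, which unlike Vash1 is not known as an inhibitor, is among the lower ones, at -1.75 in monoculture and -1.40 in coculture. Col18a1, the collagen from which endostatin is cut, averaged 111.6 FPKM in monoculture EpCAM+, 5.61 FPKM in monoculture EpCAM-, 93.5 FPKM in coculture EpCAM+ and 4.14 FPKM in coculture EpCAM-. Serpinf1, which encodes pigment epithelium-derived factor and is also a mesenchymal marker here, averaged 0.949 FPKM in monoculture EpCAM+, 741.8 FPKM in monoculture EpCAM-, 13.2 FPKM in coculture EpCAM+ and 725.6 FPKM in coculture EpCAM-. In EpCAM+ cells 5 were higher and 2 lower in monoculture, with Thbs1, the gene of thrombospondin 1, at 1.31 (adjusted p = 5.68e-09) and Serpinf1 at -2.86 (adjusted p = 1.98e-08). In EpCAM- cells 6 were higher and 1 lower, with Timp3, a metalloproteinase inhibitor that also blocks Kdr, at 2.76 (adjusted p = 1.17e-09), averaging 70.4 FPKM in monoculture EpCAM- and 9.56 FPKM in coculture EpCAM-.

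The genes whose course over the 8 libraries lay nearest to each member were ranked by the root mean square distance between log2(FPKM + 1) values, each centred on its own mean. The nearest gene to Adm was Prrx2 at 0.237, followed by C1qtnf3 and Aspn, and Prrx2 averaged 0.353 FPKM in monoculture EpCAM+, 64.2 FPKM in monoculture EpCAM-, 0.666 FPKM in coculture EpCAM+ and 9.82 FPKM in coculture EpCAM-. For Vegfa they were Kcnip3 at 0.0701, Raet1e and Fbxo27, and for Vegfc Arl4c at 0.173, Plin2 and Igfbp3. Flt1 was followed by Arhgef3 at 0.0579, Tgfa and Pawr. Nrp1 was nearest to Hdac7 at 0.0195, the smallest distance of any member, then to Zyx and Rasa3, and Nrp2 to Glud1 at 0.0472, Tmem109 and Cpe. Vegfb was nearest to Fam63a at 0.0329, Eps8 and Sqstm1, Pgf to Shroom1 at 0.0671, Proser1 and Zfp53, and Kdr to Gata6 at 0.0293, Map2k1 and Sema6d. The distances rest on 4 groups of 2 libraries, and no member was among the 3 nearest of another. The added 1 shrinks changes at low levels, so a near gene need not share the fold changes of the member. Kcnip3 averaged 0.0548 FPKM in monoculture EpCAM+, 1.54 FPKM in monoculture EpCAM-, 0.112 FPKM in coculture EpCAM+ and 3.39 FPKM in coculture EpCAM-, far under Vegfa. Map2k1 averaged 44.6 FPKM in monoculture EpCAM+ and 91.0 FPKM in coculture EpCAM-, far above Kdr.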

How the data were processed

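The authors deposited 1 table of FPKM per gene for each library. Per the submitters' processing notes, FastQC, cutadapt, HISAT2, SAMtools, HTSeq and edgeR were used, with no versions named, on mouse build mm10. Paired reads of 150 bp came from an Illumina HiSeq run of total RNA, per the labels' protocols. Not given in the sources used here are the tool that wrote the FPKM, the annotation, strandedness and any scaling between libraries. Reads could not be recovered from the values, so no counting interval is given. Depths relative to monoculture EpCAM+ replicate 1, read from the low values, were 0.912 to 1.16. No label gives a batch.

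From the FPKM, log2(FPKM + 1) was fitted with limma 3.58.1 in R 4.3.3 (cell means of 4 groups, 8 libraries, 4 residual degrees of freedom, eBayes with trend) over the 12012 genes that reached 1 FPKM in 2 libraries or more. The fractions were compared within each culture and the cultures within each fraction, and the culture effects of the fractions were set against each other. Two-sided p-values were adjusted over all genes tested (Benjamini-Hochberg), and genes were called at an adjusted p under 0.05, or also at 2-fold or more. The test was run on simulated data in which only a small part of the genes was changed, unlike the large shares called here. That run therefore does not vouch for these calls. Other tables used Python 3.11.15, pandas 2.3.3 and NumPy 2.4.6, and figures matplotlib 3.10.9. Promoter windows are RefSeq's, positions GENCODE's.

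The 9 members, the lists and the tests were chosen with earlier results of these data known. Named besides the members are, of each pathway list and comparison of groups, the called genes with the highest and lowest log2 fold change where the higher group averages 5 FPKM or more, 3 nearest genes per member, and the partner ligands and receptors, for which values are given whether or not the rule takes them. Sema3f, Epas1 and Vash2 are named outside that rule. Lists of pericyte, leukocyte, lymphatic, endothelial, mesenchymal and epithelial markers were read as levels. Of 8 pericyte and mural markers, which include Pdgfrb, the sum was 46.9 to 49.2 FPKM in EpCAM+ and 191.8 to 237.2 FPKM in EpCAM- libraries. Alternatives were other pseudocounts and filters, 3 scalings, other settings of the fit, the EpCAM- share taken off, a replicate block and each library left out.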

Additional observations from a re-analysis of the deposited data

Results flagged for a closer look

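The results below were picked out because the difference between monoculture and coculture was not the same in the fractions, by a limma test of the difference itself (the log2 culture effect in EpCAM+ minus that in EpCAM-, adjusted over 12012 genes, 2 libraries a group). Among the members it was 0.78 for Vegfa (SE 0.0363, adjusted p = 1.22e-06), -0.50 for Vegfb (SE 0.0572, adjusted p = 1.44e-04), 2.15 for Vegfc (SE 0.0651, adjusted p = 1.87e-07) and -3.50 for Adm (SE 0.0680, adjusted p = 2.16e-08). It was -0.29 for Flt1 (SE 0.0469, adjusted p = 0.001), 0.40 for Kdr (SE 0.0776, adjusted p = 0.00247) and 0.18 for Nrp1 (SE 0.0389, adjusted p = 0.00474). Kdr passed the filter only through the coculture EpCAM- libraries. Vegfb was lower in monoculture in EpCAM+ cells at 16.6 ± 0.552 FPKM in monoculture and 23.0 ± 0.0355 FPKM in coculture, while in EpCAM- cells it had 23.7 ± 0.867 FPKM in monoculture and 22.7 ± 0.899 FPKM in coculture (SD, n = 2 each). Flt1 and Nrp1 were higher in monoculture in both fractions, so these differences are of size, not of direction.

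Among the partner genes it was -1.81 for Figf (SE 0.0636, adjusted p = 3.53e-07), -0.17 for Flt4 (SE 0.0620, adjusted p = 0.0416) and 0.37 for Adm2 (SE 0.1138, adjusted p = 0.0219). It was 0.36 for Ramp1 (SE 0.0998, adjusted p = 0.0134), 0.80 for Ramp3 (SE 0.0982, adjusted p = 2.23e-04) and 0.54 for Ackr3 (SE 0.1077, adjusted p = 0.00293). Figf had the direction of Adm: it was lower in monoculture in EpCAM+ cells, by a log2 difference of -0.33, and higher in EpCAM- cells. With the EpCAM- share taken off, the difference in EpCAM+ cells was -0.18, with both monoculture EpCAM+ libraries at 0, and it was not tested. Such differences passed for 65.2% of all genes tested, so passing does not set these genes apart.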

How the results depend on the processing

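Under 20 alternative settings, 854 of 867 recomputed log2 values of members kept their direction and their side of the threshold, 6 lost the call and 7 changed sign, and 393 of 396 counts stayed within 1.5 times. Sign changes were in values with no call in the results above. Vegfb, EpCAM+ against EpCAM- in coculture, was 0.02. It was -0.0722 with library sums made equal, -0.25 by the median of ratios, -0.20 after quantile normalization and -0.0050 with the EpCAM- share taken off, and it ranged from -0.0198 to 0.0577 with a library left out. Monoculture against coculture in EpCAM+ was 0.0166 for Pgf after quantile normalization, and for Kdr it ranged from -0.1035 to 0.0112 with a library left out, positive without coculture EpCAM+ replicate 1. With a pseudocount of 0.1, genes called at 2-fold numbered 562 against 233 for monoculture against coculture in EpCAM+, 910 against 543 in EpCAM- cells, and 1613 against 972 for the difference between the culture effects. Of the 972, 30.0% were positive, and 41.9% of such calls after quantile normalization. Kdr lost its call for that difference with this pseudocount (0.64, adjusted p = 0.0771). Calls lost by Vegfa and Pgf stand beside their results. Quantile normalization put Pgf in coculture at 0.99, under 2-fold, and moved the median of all genes by 0.11 for the difference between the culture effects. The cause of these changes was not tested. A filter of 5 FPKM left Kdr and Pgf untested in all comparisons, and Kdr was also untested when either coculture EpCAM- library was left out. Cases in which a member was not tested are not among the 867 values.

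Same-numbered libraries did not vary together (correlations of replicate differences between groups from -0.07 to 0.04), so the numbers pair no samples; a replicate block left 10512 genes called in monoculture, 10437 in coculture, 5998 and 7448 between cultures in EpCAM+ and EpCAM-, and the same 9, 8, 7 and 8 members. Depth is unknown, and values under 1 FPKM, as for Kdr, Pgf and, in EpCAM+ cells, Adm, are the least precise.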
